A study of Mus musculus with 16 samples.

Results

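Of 25719 mouse genes listed in the deposited files, 9 that carry glucose and lactate across the cell membrane or set the pace of glycolysis were followed here in tail tendon fascicles with and without Vhl. They were taken as a list of named genes: the glucose transporters Slc2a1, Slc2a3 and Slc2a4, the lactate and pyruvate transporters Slc16a1 and Slc16a3, and the regulatory enzymes Pfkfb1, Pfkfb2, Pfkfb3 and Pfkfb4. Each of the 9 was listed under 1 Ensembl identifier and passed the filter on low counts.

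The series holds RNA sequencing of 16 libraries of tail tendon fascicles, the thin collagen strands of the mouse tail, and its title asks how HIF1α acts in tendon overload and tendinopathy. In 8 libraries the genotype is wild type, and in 8 it is the knockout ScxCre;Vhlf/f, in which the promoter of Scx, a tendon transcription factor, drives Cre and the floxed Vhl is cut out of cells that express or once expressed Scx. Age, sex and strain, and whether the wild type mice carried ScxCre or the floxed allele, are not given in the sources used here. Since the labels give the cell type as every cell present, a level is an average over tenocytes and whatever other cells the strands held, and fewer cells of a type cannot be told apart from less RNA per cell.

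Glucose enters cells down its gradient through the Slc2a transporters: Slc2a1 encodes GLUT1, the carrier of basal uptake, Slc2a3 encodes the high-affinity carrier GLUT3, and Slc2a4 encodes GLUT4, the insulin-regulated carrier of muscle and fat. Lactate, the end product of glycolysis without oxygen, crosses the membrane together with a proton through MCT1 (Slc16a1) or through MCT4 (Slc16a3), which is typical of strongly glycolytic cells. The Pfkfb enzymes make and break down fructose 2,6-bisphosphate, the allosteric activator of phosphofructokinase. The protein encoded by Vhl marks hydroxylated HIF1α for degradation, and Slc2a1, Slc16a3, Pfkfb3 and Pfkfb4 are textbook targets of HIF.

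HIF binds DNA at short sites with the core letters ACGTG or GCGTG, so the RefSeq promoter table (GRCm38.p6) was searched for these letters on both strands in the 250 bases before each annotated start. The table held 13 such windows for 7 of the 9 genes and none for Slc2a3 or Slc2a4. ACGTG lay in at least 1 window of 5 of the 7, namely Slc2a1, Slc16a1, Slc16a3, Pfkfb2 and Pfkfb3, and Pfkfb1 and Pfkfb4 held GCGTG alone. ACGTG lay in at least 1 window of 18.5% of all genes with a window. By window, it lay in 7 of the 13, and of all 32851 windows in the table, 16.6% held ACGTG, 28.2% held GCGTG and 38.6% held either. The windows below are those of 3 genes with a large rise (Slc2a1, Slc16a3 and the downstream start of Pfkfb3) and, as a contrast, of Slc16a1 and Pfkfb2, which hold the same letters. Capitals mark each match on the printed strand or, as CACGC, on the other, and CACGTG contains ACGTG on both strands and was found in 6.02% of all windows. A window stops at the first annotated exon base, or at the end of a match that crosses it.
Slc2a1, chr4:119108495-119108713, plus strand: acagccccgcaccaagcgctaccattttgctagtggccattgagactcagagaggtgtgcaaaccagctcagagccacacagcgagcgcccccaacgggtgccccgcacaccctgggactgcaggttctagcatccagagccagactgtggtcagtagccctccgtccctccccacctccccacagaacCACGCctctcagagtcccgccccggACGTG
Slc16a3, chr11:120948817-120949052, plus strand: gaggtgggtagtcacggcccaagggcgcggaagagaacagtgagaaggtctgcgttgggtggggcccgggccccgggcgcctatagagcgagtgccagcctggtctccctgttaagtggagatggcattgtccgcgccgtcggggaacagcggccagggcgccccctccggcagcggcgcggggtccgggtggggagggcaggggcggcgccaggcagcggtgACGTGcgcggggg
Pfkfb3, chr2:11502102-11502340, minus strand: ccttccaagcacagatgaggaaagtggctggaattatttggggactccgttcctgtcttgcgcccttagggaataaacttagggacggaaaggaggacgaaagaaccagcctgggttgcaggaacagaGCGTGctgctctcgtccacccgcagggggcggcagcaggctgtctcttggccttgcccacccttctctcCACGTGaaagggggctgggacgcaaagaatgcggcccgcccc
Slc16a1, chr3:104638414-104638663, plus strand: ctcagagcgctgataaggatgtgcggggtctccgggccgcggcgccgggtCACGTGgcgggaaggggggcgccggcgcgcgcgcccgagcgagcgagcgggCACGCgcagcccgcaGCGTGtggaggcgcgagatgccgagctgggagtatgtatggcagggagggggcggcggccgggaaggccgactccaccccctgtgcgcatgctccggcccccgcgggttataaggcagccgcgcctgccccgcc
Pfkfb2, chr1:130715822-130716071, minus strand: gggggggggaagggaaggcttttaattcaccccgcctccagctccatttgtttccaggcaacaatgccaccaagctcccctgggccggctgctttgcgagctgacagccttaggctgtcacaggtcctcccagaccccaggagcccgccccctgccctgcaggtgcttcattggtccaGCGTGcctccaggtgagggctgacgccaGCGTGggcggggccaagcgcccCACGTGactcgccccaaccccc
The ACGTG of Slc2a1 lay at bases -36 to -32 from the start, and that of Slc16a3 at -27 to -23, with a further one at -14 to -10 inside an annotated exon and therefore not printed. In Pfkfb3 the palindrome CACGTG lay at -53 to -48, with GCGTG at -122 to -118. A match of letters is a description of the sequence and not a binding site.

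Knockout libraries held 10488355 to 18753254 counts and wild type libraries 10792900 to 16379401, and a count of 3 corresponded to 0.145 to 0.336 CPM. Levels are CPM, counts scaled to a common library total with sizes adjusted by TMM (trimmed mean of M-values), and differences are log2 fold changes of the knockout against the wild type, past the threshold where the adjusted p was under 0.05. The median difference of all tested genes was 0.02, and 0.32 when libraries were scaled by total counts alone. Vhl itself was lower in every knockout library (7.51 to 10.9 CPM) than in every wild type library (14.1 to 25.8 CPM), a log2 fold change of -1.13 (quasi-likelihood F test of edgeR, Benjamini-Hochberg adjusted p = 9.64e-08). Markers of the tissue were abundant, with 9 tenocyte genes summing to 77587 to 181187 CPM in the knockout and 130878 to 380895 CPM in the wild type, 6 of them lower and 1 higher. Here and for the markers below, the share over all 14803 tested genes was 25.6% higher and 22.7% lower. Markers of other cells differed too. The 16 skeletal muscle markers summed to 7709, 9905 and 9269 CPM in knockout libraries 6, 7 and 8 and to 4977 CPM in wild type library 5, and to at most 1343 CPM in the other 12 libraries. Of the 16, 1 was higher and 0 were lower. The 11 endothelial markers summed to 57.1 to 504 CPM in the knockout and 39.6 to 56.6 CPM in the wild type (6 of 8 tested were higher), and the 7 erythroid markers to 77.8 to 563 against 15.1 to 50.8 CPM (5 of 5 tested were higher). Macrophage markers summed to 823 to 1279 against 812 to 1218 CPM, platelet markers to 28.0 to 63.9 against 52.6 to 88.9 CPM, Schwann cell markers to 21.3 to 74.7 against 21.5 to 33.7 CPM and adipocyte markers to 1.63 to 19.6 against 2.12 to 8.16 CPM. Of those tested, 2 of 9 macrophage and 1 of 4 Schwann cell markers were higher and 2 of 2 platelet markers lower. The 1 adipocyte marker tested did not pass. The 5 neutrophil markers were low but summed to more in the knockout, 2.43 to 4.84 against 0.468 to 1.51 CPM without overlap. The 1 tested passed the filter on low counts only through the knockout, so its higher call adds no support. Ly6g was at 0 in every library. The 4 keratinocyte markers summed to 2.18 to 3.06 against 2.53 to 3.96 CPM, with Krt1 at 0 in every library and the 1 tested lower. The part of these cells in the results below was not tested.

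Knockout tendon held much more of the transcripts for glucose entry through Slc2a1 and Slc2a3, for lactate transport through Slc16a3, and of Pfkfb3. These 4 genes rose by 21.0, 10.8, 46.5 and 3.59 fold, Pfkfb4 rose by 1.26 fold and Slc16a1 fell by 1.36 fold, while Slc2a4, Pfkfb1 and Pfkfb2 did not pass the threshold. So 6 of the 9 passed it, 5 higher and 1 lower, where 48.3% of all 14803 tested genes passed (25.6% higher and 22.7% lower; quasi-likelihood F test of edgeR with Benjamini-Hochberg adjustment). In 4 of the 9 the lowest knockout library lay above the highest wild type library, all at least 2-fold higher; over all tested genes 10.8% had no overlap in that direction and 8.3% passed with at least a 2-fold rise. The median log2 fold change of the 9 was 1.04, the value of Slc2a4 itself. Without the 4 libraries richest in muscle markers, with 12 left, 4 of the 9 passed, all higher, beside 6101 of 14900 tested genes. When the muscle score entered the model 5 passed, 4 higher and 1 lower, beside 6501 of 14803. The median of the 9 was 0.26 in the first of these fits and 0.22 in the second. The labels do not say that the libraries of a genotype came from separate animals, so the p-values measure the spread between these samples.

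**Figure D1:**
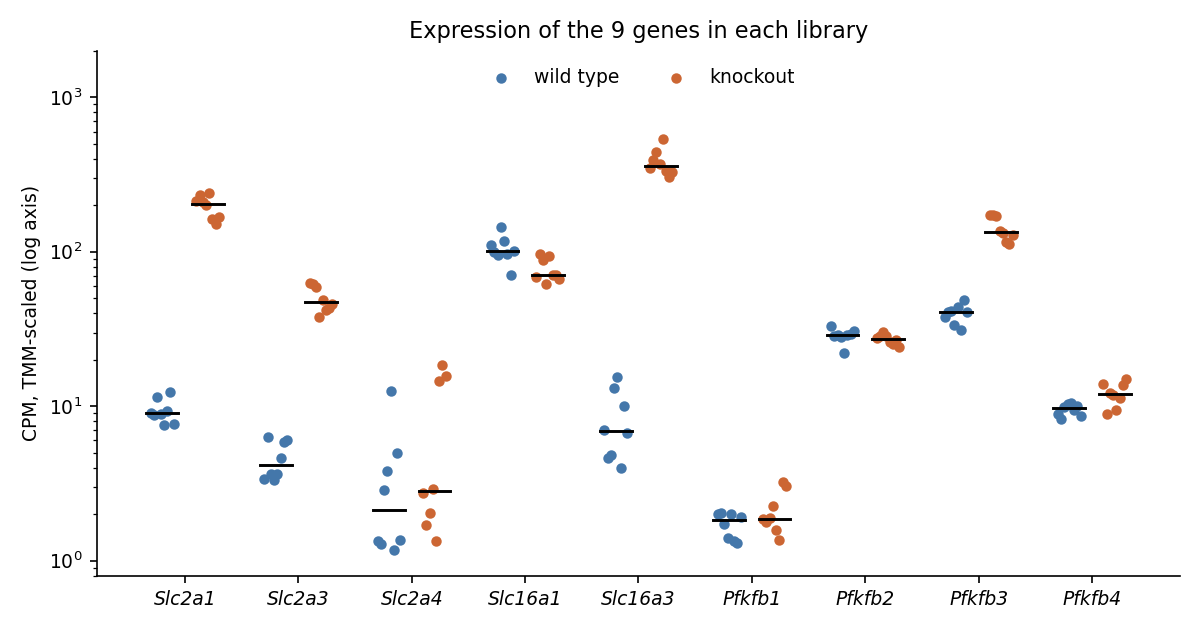
Level of each of the 9 genes in CPM (log axis), 1 point for each of 8 wild type (blue) and 8 knockout (orange) libraries, with a black bar at each median. Slc2a1, Slc2a3, Slc16a3 and Pfkfb3 show no overlap between genotypes, and Slc2a4 splits within each genotype.

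Among the glucose carriers, Slc2a1 (ENSMUSG00000028645, chromosome 4) had the highest level in the knockout. Its level there was 150.9 to 240.9 CPM, with a median of 205 CPM, and wild type libraries had 7.59 to 12.3 CPM, with a median of 9.0 CPM. Every knockout library was more than 10 times above every wild type library. The log2 fold change was 4.39 (SE 0.127; quasi-likelihood F test of edgeR, Benjamini-Hochberg adjusted p = 3.22e-15), the seventh smallest adjusted p of all tested genes. The 3 muscle-rich knockout libraries were the lowest of the 8, at 151 to 168 CPM against 201 to 241 CPM in the other 5. They were also the richest in endothelial markers, at 333 to 504 against 57.1 to 184 CPM, so muscle and endothelial markers cannot be told apart here. Erythroid markers summed to 555 and 505 CPM in knockout libraries 5 and 2, the highest in Slc2a1, and to 563 CPM in the muscle-rich library 6. The part of endothelial and erythroid cells in the difference between genotypes was not tested. Without the 4 muscle-rich libraries its log2 fold change was 4.51. Exons of Slc2a1 overlap those of the antisense gene Gm12868 over 105 bases, and the strand used in counting is not given.

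Slc2a3 (ENSMUSG00000003153, chromosome 6) was below Slc2a1 per kilobase of exon in both genotypes. Its level lay between 37.8 and 62.7 CPM in the knockout (median 47.1 CPM) and between 3.35 and 6.35 CPM in the wild type (median 4.15 CPM). The groups did not overlap, and knockout libraries 1, 2 and 3 were highest at 59.2 to 62.7 CPM. The log2 fold change was 3.44 (SE 0.161; quasi-likelihood F test of edgeR, Benjamini-Hochberg adjusted p = 3.09e-12). Slc2a1 rose more than Slc2a3 did: the log2 ratio of their counts within a library was 1.98 ± 0.242 in knockout and 1.05 ± 0.455 in wild type libraries (SD, n = 8), without overlap. The difference of 0.93 had an exact two-sided permutation p of 0.000155 over the 12870 assignments of 16 libraries, the smallest possible, and 0.000186 after adjustment over the 6 ratios tested.

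The insulin-regulated carrier Slc2a4 (ENSMUSG00000018566, chromosome 11) did not pass the threshold. Knockout libraries spanned 1.33 to 18.4 CPM (median 2.82 CPM) and wild type libraries 1.18 to 12.5 CPM (median 2.12 CPM). Knockout libraries 6, 7 and 8 stood at 14.5, 18.4 and 15.8 CPM and wild type library 5 at 12.5 CPM. These are the 4 libraries richest in muscle markers, and the other 12 lay between 1.18 and 4.97 CPM. The log2 fold change was 1.04 (SE 0.695; quasi-likelihood F test of edgeR, Benjamini-Hochberg adjusted p = 0.235). It was -0.19 without the 4 libraries and -0.23 when the muscle score entered the model, and neither passed the threshold. The log2 ratio of Slc2a1 to Slc2a4 was 5.43 ± 1.81 in knockout and 1.83 ± 1.22 in wild type libraries (SD, n = 8; exact two-sided permutation test, adjusted p = 0.000186).

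**Figure D2:**
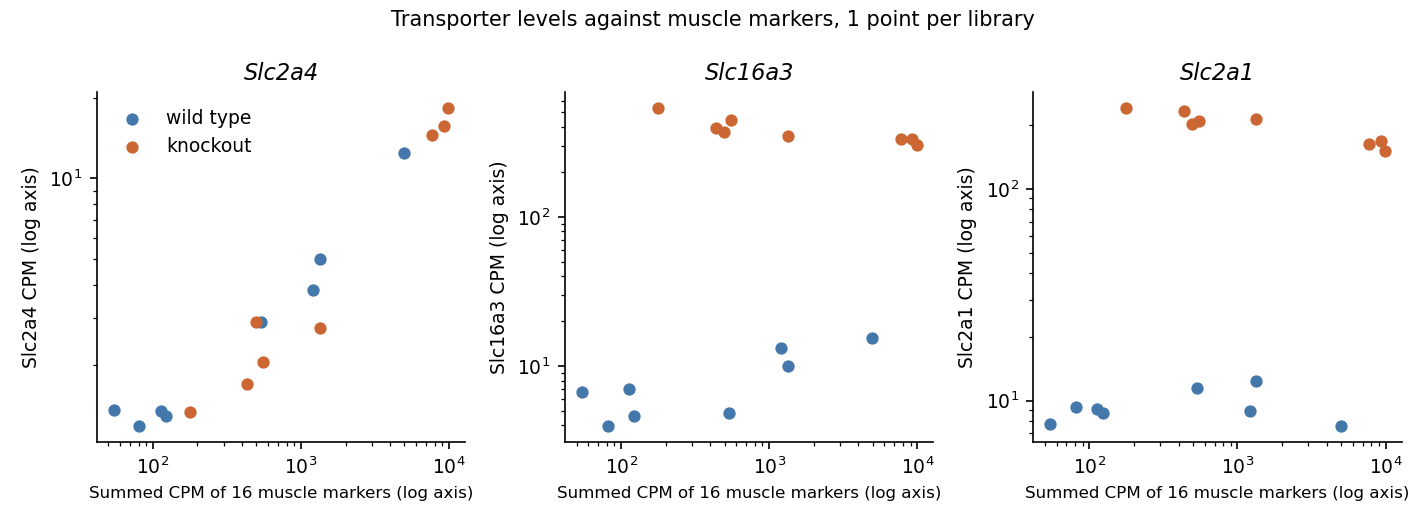
CPM of Slc2a4, Slc16a3 and Slc2a1 (log axes) against the summed CPM of 16 skeletal muscle markers, 1 point for each wild type (blue) or knockout (orange) library. Slc2a4 follows the markers in both genotypes, from 1.18 to 18.4 CPM, while Slc16a3 and Slc2a1 stay apart by genotype over the whole range.

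Slc2a1 was a small share of the Slc2a family in the wild type and the largest in the knockout. Per kilobase of exon, Slc2a1 held a median of 59.8% of the transcripts of 12 Slc2a genes in the knockout (53.4% to 63.3%) and 7.84% in the wild type (6.64% to 11.97%). In the wild type the leading members were Slc2a13, a proton and myo-inositol symporter, with 30.5%, and Slc2a10, with 24.9%. In the knockout these held 11.2% and 8.22%, although neither passed the threshold for its own level. The sum over the family was 94.9 CPM per kilobase in the knockout (median; 80.6 to 109) and 32.7 in the wild type (27.3 to 34.7). These shares come from the same counts as the fold changes and were not tested.

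The 2 lactate transporters moved apart, mainly by the rise of Slc16a3. Slc16a3 (ENSMUSG00000025161, chromosome 11) was at 304.6 to 535.9 CPM in the knockout, with a median of 360 CPM, and at 3.97 to 15.5 CPM in the wild type, with a median of 6.86 CPM. No library of one genotype came near the other. The log2 fold change of 5.54 was the largest of the 9 (SE 0.290; quasi-likelihood F test of edgeR, Benjamini-Hochberg adjusted p = 9.58e-11) and placed it 65th among the rises of all tested genes. Within the wild type, libraries 4, 5 and 7 were highest at 13.1, 15.5 and 10.05 CPM. These 3 also had the most muscle marker counts of the wild type, and the part of muscle in those values was not tested. Without the 4 muscle-rich libraries the log2 fold change was 5.86.

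Slc16a1 (ENSMUSG00000032902, chromosome 3) was the most abundant of the 9 per kilobase in the wild type. It ran from 71.0 to 144.8 CPM there, with a median of 100.5 CPM, and from 62.2 to 96.7 CPM in the knockout, with a median of 70.4 CPM. The groups overlapped. It fell by 0.44 on the log2 scale (SE 0.124; quasi-likelihood F test of edgeR, Benjamini-Hochberg adjusted p = 0.00639). This call was lost when libraries were scaled by total counts, at -0.14 (adjusted p = 0.316), and without the 4 muscle-rich libraries, at -0.33 (adjusted p = 0.10).

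The balance between the 2 transporters turned over in every library. The log2 ratio of Slc16a3 to Slc16a1 counts was 2.30 ± 0.186 in knockout and -3.80 ± 0.671 in wild type libraries (SD, n = 8). All 8 knockout values were positive and all 8 wild type values negative. The difference was 6.10 (exact two-sided permutation test, adjusted p = 0.000186) and does not depend on library scaling. Per kilobase, Slc16a3 held 79.3% of the transcripts of the 4 lactate-carrying members (Slc16a1, Slc16a7, Slc16a8 and Slc16a3) in the knockout against 4.86% in the wild type, and Slc16a1 held 19.1% and 90.2% (medians). The sum of the 4 was 83.8 CPM per kilobase in the knockout against 25.1 in the wild type.

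**Figure D3:**
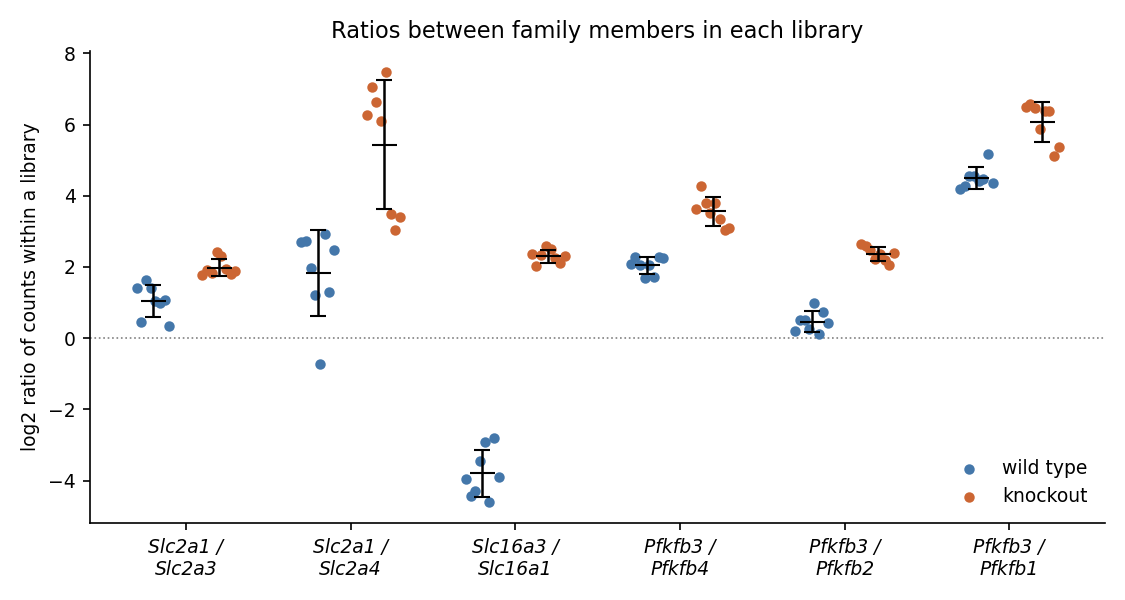
Log2 ratio of the counts of 2 genes within a library, for 6 pairs, 1 point for each wild type (blue) or knockout (orange) library, with mean and SD in black (n = 8). Slc16a3 against Slc16a1 changes sign between genotypes, from -3.80 to 2.30, and all pairs except Pfkfb3 against Pfkfb1 are free of overlap.

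Of the Pfkfb enzymes, Pfkfb3 (ENSMUSG00000026773, chromosome 2), the isoform whose kinase activity far exceeds its phosphatase activity, rose most. It was at 113.0 to 174.1 CPM in the knockout (median 134 CPM) and at 31.0 to 48.8 CPM in the wild type (median 40.7 CPM). The groups did not overlap, and knockout libraries 1, 2 and 3 were highest at 169 to 174 CPM. The log2 fold change was 1.84 (SE 0.111; quasi-likelihood F test of edgeR, Benjamini-Hochberg adjusted p = 6.39e-11), and 2.00 without the 4 muscle-rich libraries. The 3 muscle-rich knockout libraries were the lowest of their group, at 113.0 to 128 CPM.

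Pfkfb4 (ENSMUSG00000025648, chromosome 9), known best from testis and from hypoxic cells, rose least of the 5 that were higher. Its level was 8.93 to 15.0 CPM in the knockout (median 11.97 CPM) and 8.24 to 10.5 CPM in the wild type (median 9.68 CPM). The groups overlapped, with knockout libraries 2 and 5 inside the wild type range. It rose by 0.34 on the log2 scale (SE 0.105; quasi-likelihood F test of edgeR, Benjamini-Hochberg adjusted p = 0.0121). The call was lost when the muscle score entered the model, at 0.20 (adjusted p = 0.102), and without the 4 muscle-rich libraries, at 0.26 (adjusted p = 0.0973).

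The liver and muscle isoform Pfkfb1 (ENSMUSG00000025271, chromosome X) was the least abundant of the 9 and did not pass the threshold. It was at 1.37 to 3.25 CPM in the knockout (median 1.87 CPM) and 1.29 to 2.04 CPM in the wild type (median 1.82 CPM), a log2 difference of 0.31 (SE 0.195; quasi-likelihood F test of edgeR, Benjamini-Hochberg adjusted p = 0.202). With total counts it was 0.61 and passed (adjusted p = 0.0129). Pfkfb2 (ENSMUSG00000026409, chromosome 1), the heart isoform, lay at 24.3 to 30.4 CPM in the knockout (median 27.3 CPM) and 21.99 to 33.1 CPM in the wild type (median 28.8 CPM). Its log2 difference was -0.08 (SE 0.073; quasi-likelihood F test of edgeR, Benjamini-Hochberg adjusted p = 0.416). It turned to 0.23 with total counts (adjusted p = 0.0141), below the shift of 0.32 of all genes on that scale. Exons of Pfkfb1 overlap Apex2, and those of Pfkfb2 overlap Yod1 and Gm29427, so counts of both are uncertain.

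Pfkfb3 rose against each of the other 3 isoforms. Its log2 ratio to Pfkfb2 was 2.37 ± 0.198 in knockout and 0.47 ± 0.294 in wild type libraries (SD, n = 8), and its ratio to Pfkfb4 was 3.57 ± 0.410 against 2.05 ± 0.238. Neither ratio overlapped between genotypes, and both had an exact permutation p of 0.000186 after adjustment over 6 ratios. Against Pfkfb1 the ratio was 6.08 ± 0.564 and 4.50 ± 0.302 with an overlap (exact two-sided permutation test, adjusted p = 0.000311). The share of Pfkfb3 among the 4 isoforms, per kilobase, was 73.5% in the knockout (67.1% to 78.7%) and 45.8% in the wild type (39.6% to 50.6%), and that of Pfkfb2 was 14.7% and 34.9% (medians).

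The order of the 9 by level per kilobase of exon differed between genotypes. In the wild type Slc16a1 led with a mean of 23.7 CPM per kilobase, followed by Pfkfb3 at 5.26, Pfkfb2 at 3.95, Slc2a1 at 2.68, Pfkfb4 at 1.95, Slc16a3 at 1.55, Slc2a4 at 1.05, Slc2a3 at 0.638 and Pfkfb1 at 0.428. Only Slc16a1 and Pfkfb3, and Slc2a1 and Pfkfb4, had ranges that did not overlap with the next in line. In the knockout Slc16a3 was first at 71.9 CPM per kilobase, then Slc2a1 at 56.3, Pfkfb3 at 18.9, Slc16a1 at 17.4, Slc2a3 at 6.92, Pfkfb2 at 3.75, Pfkfb4 at 2.47, Slc2a4 at 2.13 and Pfkfb1 at 0.530. There the neighbours with overlapping ranges were Slc16a3 and Slc2a1, although Slc16a3 was above in 8 of 8 libraries, Pfkfb3 and Slc16a1, Pfkfb4 and Slc2a4, and Slc2a4 and Pfkfb1. Slc16a3 and Slc2a1 moved from the sixth and the fourth place to the first and the second.

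**Figure D4:**
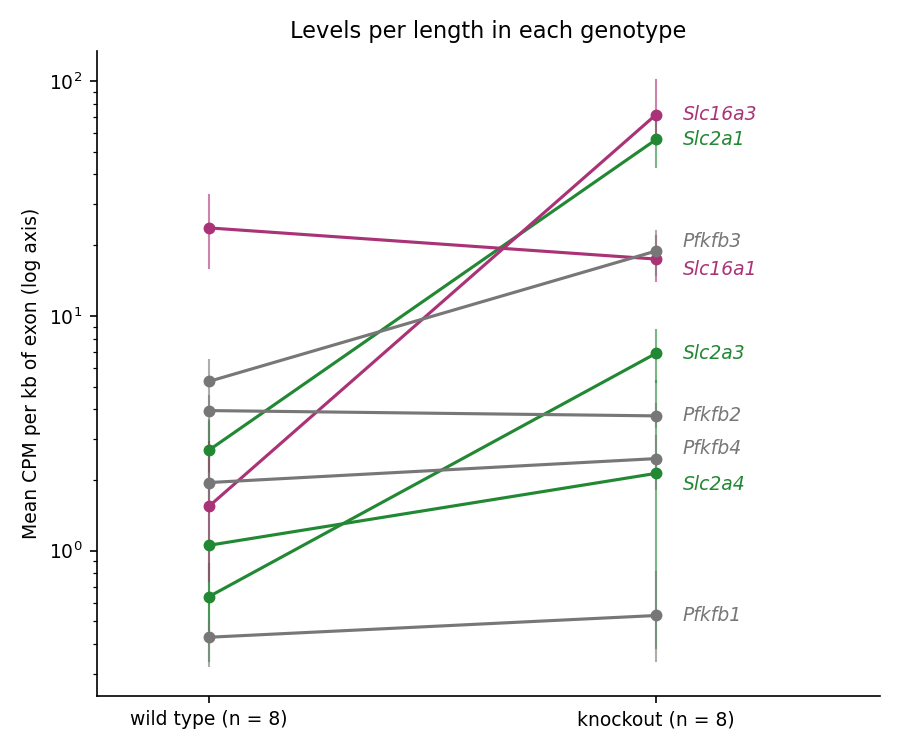
Mean level of each gene in CPM per kilobase of exon (log axis) in the wild type and the knockout, joined by a line, with thin bars for the range over 8 libraries. Glucose transporters are green, lactate transporters purple and Pfkfb isoforms grey, and Slc16a3 and Slc2a1 cross Slc16a1, which leads in the wild type at 23.7 CPM per kilobase.

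Of the other transporters of the same families, 1 of 7 sugar transporters and 2 of 8 Slc16 genes passed the threshold, beside 48.3% of all tested genes. Among the 7 tested of 11 listed sugar transporters it was Slc2a6, a lysosomal carrier. It rose from 2.47 ± 0.584 to 4.46 ± 1.15 CPM (SD, n = 8; log2 fold change 0.84, quasi-likelihood F test of edgeR, Benjamini-Hochberg adjusted p = 5.58e-04), and the median of the 7 was 0.15. Of 12 other Slc16 genes 8 were tested, with a median of 0.14. Slc16a9, a carnitine transporter, fell from 12.9 ± 1.61 to 3.14 ± 0.834 CPM without overlap (log2 fold change -2.04, adjusted p = 4.79e-10). Slc16a13 rose from 0.706 ± 0.275 to 1.47 ± 0.870 CPM (1.07, adjusted p = 0.0122), a call that was lost when the muscle score entered the model, at 0.75 (adjusted p = 0.110), and without the 4 muscle-rich libraries, at 0.53 (adjusted p = 0.164). With 5 to 13 counts in wild type libraries, Slc16a13 passed the filter on low counts mainly through the knockout, so its higher call adds little support. Both lists depended on scaling: with total counts 5 of the 7 sugar transporters and 7 of the 8 Slc16 genes passed, beside 65.4% of all tested genes.

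The protein partners and the sensor of the lactate carriers were measured as well. Of 7 such genes 5 were tested and 4 passed the threshold, 3 higher and 1 lower, beside 48.3% of all tested genes. The median of the 5 was 0.65. Bsg, which encodes basigin, the chaperone that brings MCT1 and MCT4 to the membrane, rose from 194 ± 25.1 to 1299 ± 297 CPM without overlap (SD, n = 8; log2 fold change 2.74, quasi-likelihood F test of edgeR, Benjamini-Hochberg adjusted p = 3.71e-12). Emb, the alternative chaperone embigin, rose by 0.65 on the log2 scale (adjusted p = 0.0109), a call lost without the 4 muscle-rich libraries at 0.48 (adjusted p = 0.123). Hcar1, the lactate receptor, had no count in any wild type library and 28 to 64 counts in each knockout library. It was thus at least 10.9-fold higher, taking 3 counts per library as the floor of the wild type. By the exact 95% interval used below for Fbp2, with counting error only, the lower end was 71.8-fold. Hcar1 passed the filter on low counts only through the knockout, so it could only be called higher, and its place among the 3 adds no support. Mpc2, a subunit of the mitochondrial pyruvate carrier, fell by 0.21 on the log2 scale (adjusted p = 0.0389) and kept this call in only 14 of 27 alternatives. It changed sign to 0.09 with total counts and lost the call with limma-voom (adjusted p = 0.0583), with the muscle score in the model (0.0706), without the 4 muscle-rich libraries (0.0878), and without any single one of knockout libraries 1, 2, 4, 7 and 8 or wild type libraries 4, 5, 6 and 8 (adjusted p up to 0.0838).

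At the phosphofructokinase step, on which the product of the Pfkfb enzymes acts, 5 of 6 genes were tested, with a median of 2.65. Of the 5, 4 passed the threshold, 3 higher and 1 lower, beside 48.3% of all tested genes. The platelet-type subunit Pfkp rose from 63.7 ± 6.21 to 467 ± 71.8 CPM and the liver-type subunit Pfkl from 29.3 ± 4.16 to 184 ± 28.6 CPM (SD, n = 8), both without overlap. Their log2 fold changes were 2.87 and 2.65 (quasi-likelihood F test of edgeR, Benjamini-Hochberg adjusted p = 2.22e-14 and 1.91e-13). The muscle-type subunit Pfkm, at 84.5 ± 60.4 against 44.3 ± 19.9 CPM, did not pass (adjusted p = 0.0768). Fbp2, the muscle form of the opposing fructose bisphosphatase, had 1070 counts in the knockout against 6 in the wild type, with at most 2 in any wild type library. Fbp2 passed the filter on low counts only through the knockout, so it could only be called higher, and its place among the 3 adds no support. The ratio of its counts per library size was 136 (95% exact interval 62.3 to 371, counting error only). Its highest values, 12.7 to 15.0 CPM, were in knockout libraries 1, 2 and 3, its lowest, 2.49 and 5.24 CPM, in libraries 4 and 5, and the muscle-rich libraries 6, 7 and 8 lay between at 5.53 to 11.3 CPM. Tigar, which lowers fructose 2,6-bisphosphate, fell by 0.49 on the log2 scale (adjusted p = 0.0132), a call lost with total counts, at -0.19.

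Genes that move GLUT4 to the membrane or limit glucose uptake went in both directions. Of 13 tested, 5 passed the threshold, 2 higher and 3 lower, beside 48.3% of all tested genes, with a median of 0.07. Tbc1d1, a Rab GTPase-activating protein of GLUT4 vesicles, rose from 17.6 ± 6.50 to 63.5 ± 3.80 CPM without overlap (SD, n = 8; log2 fold change 1.86, quasi-likelihood F test of edgeR, Benjamini-Hochberg adjusted p = 1.49e-08). Arrdc4, an arrestin that lowers glucose uptake, rose by 0.47 on the log2 scale (adjusted p = 0.00217), while its relative Txnip was at 470 ± 52.4 against 383 ± 112 CPM and did not pass (adjusted p = 0.111). The insulin signalling genes Akt2, Irs1 and Irs2 fell by 0.71, 0.55 and 0.43 on the log2 scale (adjusted p = 7.92e-07, 0.00102 and 6.98e-04). With total counts Irs1 and Irs2 did not pass, at -0.24 and -0.13.

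Of the 7 subunits of AMPK, the energy sensor that phosphorylates Pfkfb2, Pfkfb3 and Tbc1d1, 3 passed the threshold, beside 48.3% of all tested genes. Of these 1 was higher and 2 were lower, and the median of the 7 was -0.12. Prkab2 rose from 19.2 ± 2.70 to 56.6 ± 7.64 CPM without overlap (SD, n = 8; log2 fold change 1.56, quasi-likelihood F test of edgeR, Benjamini-Hochberg adjusted p = 7.16e-11). Prkag2 and Prkab1 fell by 0.25 and 0.22 on the log2 scale (adjusted p = 0.00503 and 0.0333) and changed sign with total counts, to 0.05 and 0.09. Prkag2 also lost its call without the 4 muscle-rich libraries (adjusted p = 0.0710). Prkab1 kept its call in only 17 of 27 alternatives, losing it with the muscle score in the model (adjusted p = 0.0893) and without any single one of knockout libraries 2 to 6 or wild type libraries 6, 7 and 8 (adjusted p up to 0.0743).

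Most of the listed enzymes between glucose entry and lactate were higher in the knockout. Of 14 glycolytic enzymes 12 were higher and none lower, beside 25.6% and 22.7% of all tested genes. In 11 every knockout library lay above every wild type library, beside 10.8% of all tested genes, and the median was 2.05. Aldoc, the brain-type aldolase, rose from 0.635 ± 0.165 to 44.2 ± 10.8 CPM, Hk2, the inducible hexokinase that traps glucose in the cell, from 10.5 ± 5.74 to 120 ± 9.53 CPM, and Tpi1, triosephosphate isomerase, from 88.6 ± 19.4 to 603 ± 116 CPM (SD, n = 8). The log2 fold changes of Hk2 and Tpi1 were 3.52 and 2.77 (quasi-likelihood F test of edgeR, Benjamini-Hochberg adjusted p = 7.98e-09 and 5.91e-12), and that of Aldoc was 6.11. Aldoc, with at most 9 counts in any wild type library, passed the filter on low counts only through the knockout. It could therefore only be called higher, and its place among the 12 and the 11 adds no support. Ldhb and Hk3 did not pass the threshold, at 0.29 and -0.06. Several of these enzymes have processed pseudogenes that could take part of their counts. Exons of Slc16a9, Emb, Pfkp, Pfkm, Tigar, Txnip, Irs1, Irs2, Prkab2, Prkag2 and Tpi1 overlap those of other annotated genes, so these counts are uncertain too. Over the 7 lists of 70 genes together, 59 were tested, 23 were higher and 8 lower. These 31 are 52.5% of those tested, near the 48.3% of all tested genes. They include Hcar1, Fbp2 and Aldoc, which passed the filter on low counts only through the knockout, and Slc16a13, which passed it mainly so. With total counts 42 (71.2%) passed, beside 65.4% of all tested genes.

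**Figure D5:**
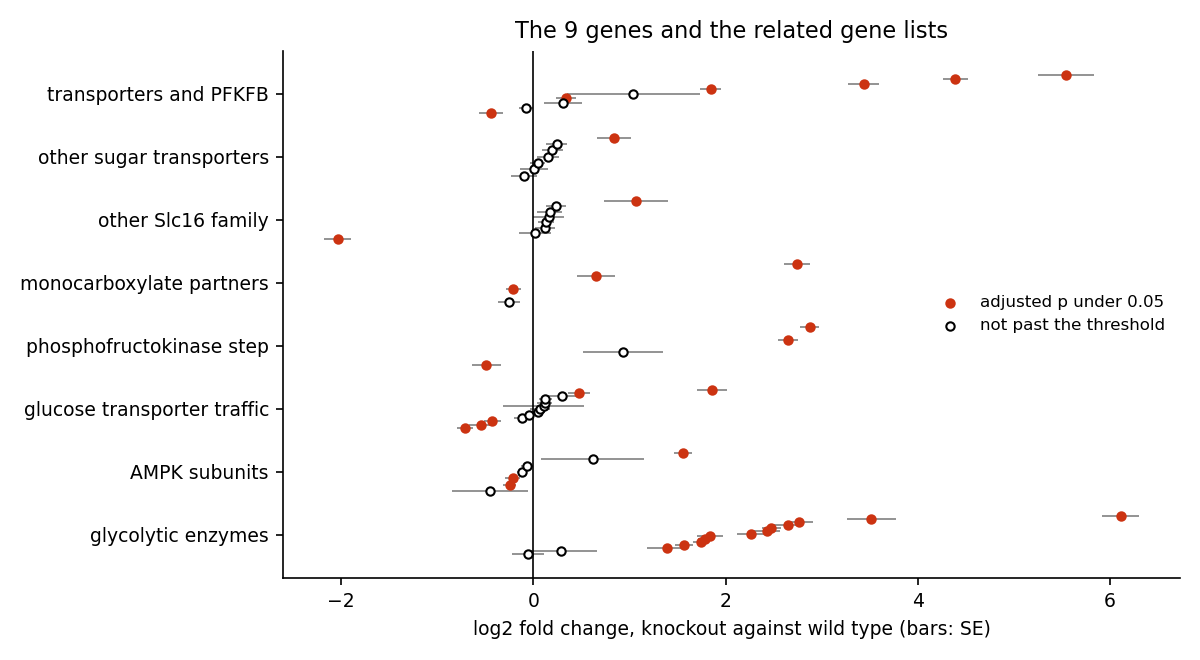
Log2 fold change of the knockout against the wild type for each tested gene of the 9 and of 7 related lists, with bars for the SE; filled points passed an adjusted p of 0.05 and open points did not. Hcar1 and Fbp2, with at most 2 counts in any wild type library, are left out, and 12 of the 14 glycolytic enzymes are filled points to the right of 0. Among these, Aldoc passed the filter on low counts only through the knockout.

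Apart from genotype, the libraries also varied among themselves. With each genotype's mean subtracted from the log2 CPM, the genes most like each changed member were sought among 13416 tested genes by Pearson correlation over 16 libraries, as a description of libraries that share depth and scaling. Slc16a3 was most like Hk2 (0.886), followed by Aimp2 (0.869) and Nle1 (0.822). In the wild type Hk2, like Slc16a3, was highest in libraries 5, 4 and 7, at 22.2, 15.8 and 9.45 CPM. These libraries had the most muscle marker counts of the wild type, and the part of muscle in this likeness was not tested. Slc2a3 was most like Ppp1r3b (0.860), a glycogen-targeting phosphatase subunit, then Clk1 (0.858) and Ccdc28a (0.852). The closest to Slc16a1 were Sec22b (0.942), Sar1a (0.929) and Sec23a (0.928), all of the vesicle traffic from the endoplasmic reticulum. For Slc2a1 they were Sun1 (0.849), Scml2 (0.831) and Apbb1 (0.822), for Pfkfb3 Rsad1 (0.839), Gnrh1 (0.819) and D230049E03Rik (0.815), and for Pfkfb4 Ehbp1l1 (0.892), Plekhg2 (0.841) and Akna (0.838). None of the members was among the 3 closest genes of another.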

How the data were processed

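RNA of 16 tail tendon fascicle libraries was grouped by the genotype in the sample titles. The files the authors deposited hold whole-number counts per gene, 1 column per library, per the file headers. The submitters' processing notes name kallisto, featureCounts and GRCm39; their roles, versions, the annotation and the strand setting are not given in the sources used here. Of 25719 identifiers, 25614 matched a symbol.

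The members and gene lists were chosen with earlier results of these data known. Counts were tested with the quasi-likelihood test of edgeR 4.0.16 in R 4.3.3 (TMM, default expression filter, robust dispersion, genotype as the only term), adjusted over 14803 tested genes; 10916 were not tested. SE is the log2 fold change divided by the square root of F. Log2 CPM used a prior count of 2. The common biological coefficient of variation was 0.208. Ratios added 0.5 to each count and were tested by exact permutation. Named list genes are up to 3 per direction with the largest changes past the threshold. Exon lengths, overlaps and chromosomes come from GENCODE M21 (GRCm38), another build than that of the counts, so no gene coordinates are given, and promoter windows carry their own build. On simulated counts with 200 genes changed 2-fold among 14743, the test called 197 (98.5%), and 3.90% of its calls were false. The simulation gave every gene the same coefficient of variation of 0.2, and in the data 48.3% of tested genes passed. These rates therefore need not hold for the data.

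Same-numbered libraries were not treated as pairs: only 3 of 8 pairs deviated together (correlation over 0.1). Alternatives were DESeq2 1.42.0 size factors and Wald test, total counts, TMM without the 20 most abundant genes, other filters (none, or a mean count of at least 10), limma-voom (limma 3.58.1), non-robust dispersion, a replicate block, a muscle score (mean log2 CPM of the 16 muscle markers) as a covariate, and each library left out. Leaving out the 4 libraries richest in muscle markers was chosen after seeing the data.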

Additional observations from a re-analysis of the deposited data

Results flagged for a closer look

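In 30 checks of the 9 genes and 6 ratios within each genotype, 3 had a library that stood apart from the other 7 of its group, where chance gives about 1 in 20 checks, or 1.5. Wild type library 5 was low in Pfkfb2, at 4.47 log2 CPM with the nearest library at 4.81. The same library was low in the log2 ratio of Slc2a1 to Slc2a4, at -0.72 with the nearest at 1.21. It is the wild type library richest in muscle markers. Wild type library 7 was high in the log2 ratio of Pfkfb3 to Pfkfb1, at 5.19 with the nearest at 4.56, and had 13 counts of Pfkfb1.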

How the results depend on the processing

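Slc2a1, Slc2a3, Slc16a3, Pfkfb3 and the 6 ratios kept their direction and their side of the threshold under every alternative run. Scaled by total counts, Slc16a1 was -0.14, Pfkfb1 0.61 and Pfkfb2 0.23, and Mpc2, Prkag2 and Prkab1 turned to 0.091, 0.047 and 0.089; 85.4% of calls were then higher in the knockout, against 53.0% with TMM. With the muscle score as a covariate, Slc2a4 was -0.23, Pfkfb2 0.0078 and Pfkfb4 0.20. Without the 4 libraries richest in muscle markers, Slc2a4 was -0.19, Slc16a1 -0.33 and Pfkfb4 0.26; the cause of these shifts was not tested. Genes past the threshold ranged from 6101 to 9685 over all alternatives, and from 6790 to 7151 with 1 library left out. With one library left out at a time 6 of the 9 always passed, and Slc2a4 ranged from 0.69 to 1.63, highest without wild type library 5 (adjusted p = 0.0600). Replicate numbers did not pair the libraries (correlations of -0.40 to 0.39, with 1 of 8 closest to its own number); with the replicate block 7010 genes passed, no call among the 9 changed, Slc16a3 was 5.65, and of the 22 named list genes Tigar alone lost its call, at -0.48 (adjusted p = 0.0549). Pfkfb1, the least abundant of the 9 with 13 to 67 counts per library, is limited by depth. So is Slc2a4, with 12 counts in wild type library 1.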
